A study of Capra hircus with 10 samples.

Results

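Oestradiol synthesis and the inhibin, activin and follistatin system were described here by 7 goat genes, taken by their symbols with no threshold on a measured value: CYP19A1, HSD17B1, INHA, INHBA, INHBB, FST and FSTL3. They are 7 of 20587 protein-coding gene symbols in the table, and 11 annotated mRNA transcripts of 50146. The study compared whole ovaries of Anhui white goats (Capra hircus) in the follicular phase and in the luteal phase, with 5 ovaries in each group and no treatment. The ovaries came from a slaughterhouse, and neither an animal's age nor whether each ovary came from a separate goat is given in the sources used here, so that p-values measure only the spread between these samples. RNA was sequenced after removal of ribosomal RNA, and the values are FPKM, fragments per kilobase of transcript scaled to the mapped fragments of each library, summed over the transcripts of a gene.

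Aromatase, the product of CYP19A1, converts androgens to oestrogens in the granulosa cells of growing follicles, and the enzyme encoded by HSD17B1 converts oestrone to the more active oestradiol. Inhibin is a dimer of the alpha subunit (INHA) with a beta subunit (INHBA or INHBB) and lowers the release of follicle-stimulating hormone from the pituitary, whereas dimers of beta subunits alone are activins, which raise it and also act within the follicle. Follistatin (FST) and the follistatin-like protein FSTL3 bind activins and block them. In ruminants most of these genes are known chiefly from the granulosa cells of antral follicles. Their level in a whole ovary then depends both on how many such cells it holds and on how much RNA each carries, which cannot be told apart in bulk RNA.

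FPKM carries no read counts, so that the depth behind each ovary's values is not known from the files. The FPKM summed over all transcripts of an ovary ran from 492324 to 540124 in the follicular and from 452508 to 503276 in the luteal phase. The phase labels were read against marker genes. Luteal cell markers (STAR, CYP11A1, PTGFR, OXT and SCARB1) summed to 122 to 171 FPKM in follicular ovaries and 5806 to 8000 FPKM in luteal ovaries, and all 5 were higher in the luteal phase. The 7 granulosa markers (FSHR, AMH, FOXL2, NR5A2, ESR2, SERPINE2 and GATM) summed to 264 to 652 FPKM in follicular and 206 to 478 FPKM in luteal ovaries, with 5 lower, 1 higher and 1 not passing the test; none of them was at 0 in either phase. Theca markers were lower in 2 of 3 genes and higher in 1. Oocyte markers were lower in the luteal phase in 4 of 4 genes, endothelial markers were higher in 3 of 3, and stromal markers passed the test in 1 of 4. Over all 15359 genes tested, 43.7% were called in either direction and 27.8% lower.

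HSD17B1 and INHBB were lower in the luteal phase, and they were the only 2 of the 7 genes to pass the test. All 7 genes passed the filter on low values. In limma's test on log2(FPKM + 0.1), 43.7% of all genes were called in either direction and 27.8% were called lower in the luteal phase, so that 2 of 7 is close to the background for the lower direction. The split of calls over all genes depended on scaling, with 2439 of 6711 higher in the luteal phase here and 2910 of 5965 after the ovaries were shifted to a common median. The median log2 difference, luteal minus follicular, was -1.19 over the 7 genes and -0.14 over all genes tested, and without luteal ovary 3 the median of the 7 genes was -0.75. CYP19A1, INHA and INHBA differed by amounts of the same order, between -1.32 and -1.04, but varied so much among ovaries of one phase that their intervals included 0. The phases overlapped for every one of the 7 genes, whereas they did not overlap for 28.4% of all genes tested.

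**Figure D1:**
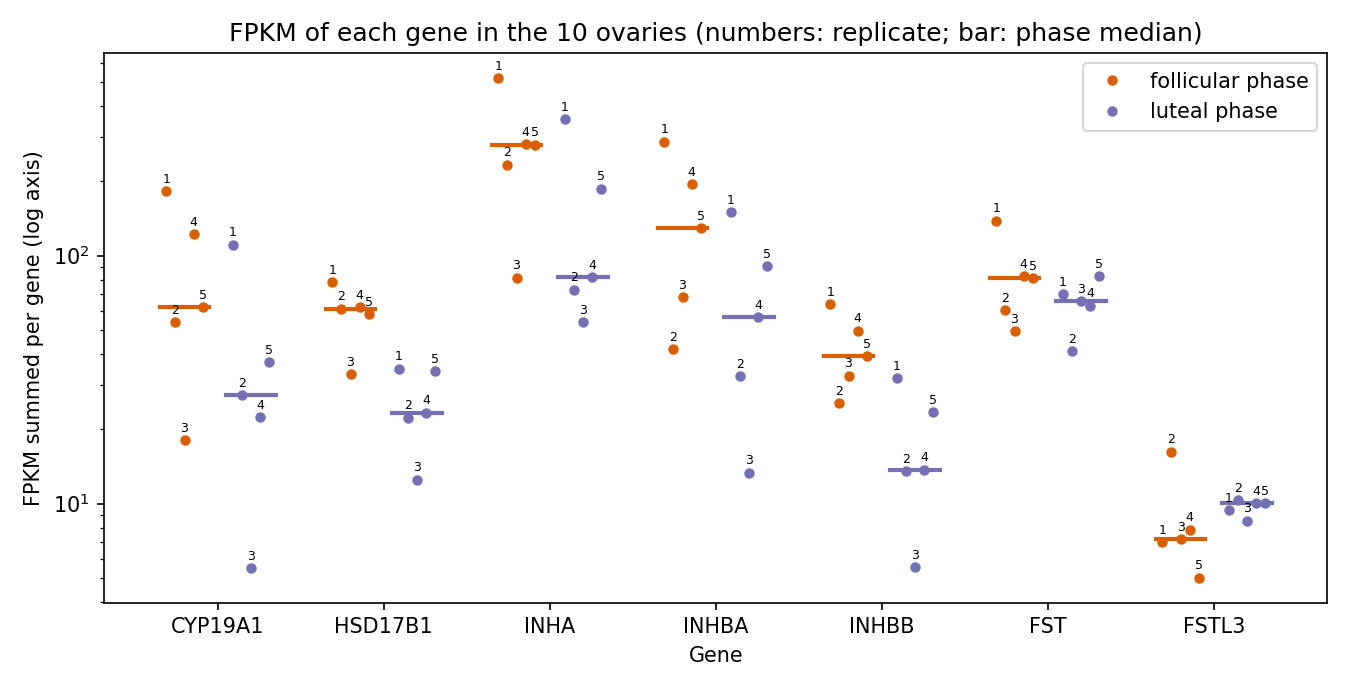
FPKM of the 7 genes in each of the 10 ovaries on a log axis, with the replicate number above each point and a bar at the median of the phase. Follicular ovary 1 and luteal ovary 1 stand at or near the top of their phase for CYP19A1, INHA, INHBA and INHBB, luteal ovary 3 is the lowest luteal point for these genes, and the phases overlap for every gene.

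CYP19A1, which encodes aromatase, had the widest spread of the 7 genes. In follicular ovaries 1 to 5 it stood at 182, 53.9, 18.1, 122 and 61.8 FPKM, and in luteal ovaries 1 to 5 at 111, 27.3, 5.49, 22.3 and 37.1 FPKM. Luteal ovary 1 was thus above 3 of the 5 follicular ovaries, and follicular ovary 3 was below 4 of the 5 luteal ovaries. The means were 87.7 ± 64.8 FPKM (SD, n = 5) in the follicular and 40.6 ± 40.9 FPKM (SD, n = 5) in the luteal phase. The log2 difference was -1.32 (SE 0.75, 95% interval -2.96 to 0.33, limma adjusted p = 0.174), which leaves room for a large fall or for a small rise. The highest follicular ovary held 10.1 times the FPKM of the lowest, and the ratio was 20.2 in the luteal phase.

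HSD17B1, the second enzyme of oestradiol formation, separated the phases more clearly. It measured 78.2, 61.0, 33.3, 61.9 and 58.2 FPKM in follicular ovaries 1 to 5 and 35.0, 22.2, 12.5, 23.3 and 34.3 FPKM in luteal ovaries 1 to 5. Follicular ovary 3 alone fell among the luteal values, below luteal ovaries 1 and 5. The mean was 58.5 ± 16.1 FPKM (SD, n = 5) in the follicular phase against 25.4 ± 9.38 FPKM (SD, n = 5) in the luteal phase. The gene fell by 1.24 on the log2 scale (SE 0.29, 95% interval -1.87 to -0.61, limma adjusted p = 0.00520). Its call held without any single ovary, with adjusted p between 0.00242 and 0.0146.

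INHA, the subunit that makes a dimer an inhibin, was the most abundant of the 7 genes per length in both phases. The follicular ovaries 1 to 5 had 520, 233, 81.5, 282 and 280 FPKM, and the luteal ovaries 1 to 5 had 355, 72.9, 53.7, 81.8 and 186 FPKM. Luteal ovary 1 was above 4 of the 5 follicular ovaries, and follicular ovary 3 lay among the low luteal values. With means of 279 ± 157 FPKM and 150 ± 126 FPKM (SD, n = 5 each), the log2 difference was -1.04 (SE 0.56, 95% interval -2.26 to 0.18, limma adjusted p = 0.149). The difference passed the threshold in 2 of 10 fits that left out 1 ovary: without follicular ovary 3 the difference was -1.43 (adjusted p = 0.0452), and without luteal ovary 1 it was -1.44 (adjusted p = 0.0373).

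INHBA, the beta A subunit, spread nearly as widely as CYP19A1. It stood at 288, 42.0, 67.9, 194 and 129 FPKM in follicular ovaries 1 to 5 and at 150, 32.6, 13.3, 56.6 and 90.8 FPKM in luteal ovaries 1 to 5. Follicular ovaries 2 and 3 were both below luteal ovaries 1 and 5. The means were 144 ± 99.4 FPKM and 68.6 ± 53.7 FPKM (SD, n = 5 each), and the log2 difference was -1.19 (SE 0.66, 95% interval -2.63 to 0.25, limma adjusted p = 0.162).

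INHBB, the beta B subunit, was lower in the luteal phase. The values were 63.8, 25.4, 32.8, 49.8 and 39.4 FPKM in follicular ovaries 1 to 5 and 32.0, 13.5, 5.53, 13.7 and 23.4 FPKM in luteal ovaries 1 to 5. Only luteal ovary 1 reached into the follicular range, above follicular ovary 2. INHBB fell by 1.41 on the log2 scale (SE 0.41, 95% interval -2.31 to -0.51, limma adjusted p = 0.0165), from a mean of 42.2 ± 15.02 FPKM to 17.6 ± 10.2 FPKM (SD, n = 5 each). The call of the gene, adjusted over genes, held without any single ovary, with adjusted p between 0.00584 and 0.0423. The difference between the changes of INHBA and INHBB was itself within the spread, as given below with their ratio.

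FST, which encodes follistatin, differed little in its mean. Follicular ovaries 1 to 5 had 138, 60.0, 49.5, 82.5 and 80.9 FPKM and luteal ovaries 1 to 5 had 69.7, 41.0, 65.3, 62.7 and 82.4 FPKM. Apart from follicular ovary 1 at the top and luteal ovary 2 at the bottom, the phases shared one range. The log2 difference was -0.30 (SE 0.26, 95% interval -0.86 to 0.26, limma adjusted p = 0.361), between means of 82.2 ± 34.2 FPKM and 64.2 ± 15.03 FPKM (SD, n = 5 each).

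FSTL3, the other activin-binding protein, was the least abundant of the 7 genes and the only one with a higher mean in the luteal phase. In follicular ovaries 1 to 5 it measured 7.004, 16.2, 7.19, 7.85 and 5.03 FPKM, and in luteal ovaries 1 to 5 it measured 9.40, 10.3, 8.52, 10.01 and 10.02 FPKM. Follicular ovary 2 was above all other ovaries, and the other 4 follicular ovaries were all below the lowest luteal ovary. The means were 8.65 ± 4.34 FPKM and 9.66 ± 0.717 FPKM (SD, n = 5 each), and the log2 difference was 0.27 (SE 0.24, 95% interval -0.26 to 0.80, limma adjusted p = 0.385). That value rested on single follicular ovaries. Without follicular ovary 2 the difference was 0.52 (limma adjusted p = 0.00769), higher in the luteal phase, the only 1 of 10 such fits to pass. Without follicular ovary 5 it was 0.11 (limma adjusted p = 0.722).

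**Figure D2:**
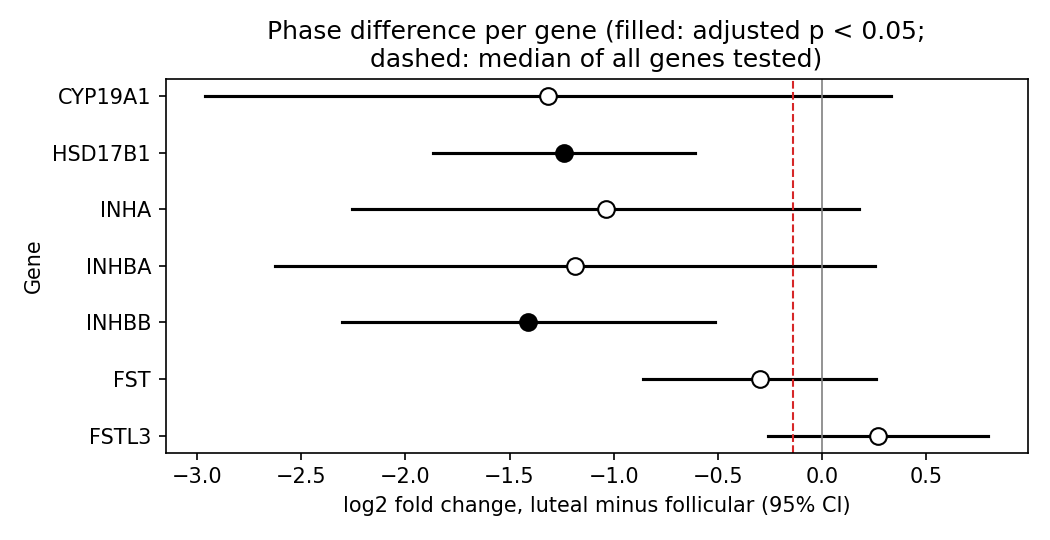
Difference of the phase means of log2(FPKM + 0.1), luteal minus follicular, for the 7 genes, with 95% intervals from limma and the median of all genes tested. The intervals of HSD17B1 and INHBB lie below 0, and those of the other 5 genes include 0.

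The order of the genes by mean FPKM, a level per length, was nearly the same in both phases. In the follicular phase it ran INHA, INHBA, CYP19A1, FST, HSD17B1, INHBB and FSTL3, and in the luteal phase FST stood above CYP19A1. INHA was above INHBA in 5 of 5 ovaries of each phase. Other neighbours were not ordered alike in every ovary: follicular CYP19A1 was above FST in 2 of 5 ovaries, and luteal INHBA was above FST in 2 of 5. HSD17B1 was above INHBB in 5 of 5 ovaries of each phase, and FSTL3 was lowest in all follicular ovaries and in 4 of 5 luteal ovaries, the exception being luteal ovary 3, where CYP19A1 and INHBB were lower.

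The spread among ovaries of one phase set the precision of these comparisons. Among 12581 genes with a mean of at least 1 FPKM, the median residual SD within phases was 0.197 on the log2 scale. It was 1.42 for CYP19A1, higher than in 99.5% of those genes, 1.24 for INHBA (99.3%), 1.05 for INHA (99.0%) and 0.768 for INHBB (97.7%). HSD17B1, at 0.534 (93.8%), FST, at 0.476 (91.8%), and FSTL3, at 0.441 (89.9%), were less variable. For FSTL3 the SD was 0.614 (95.5%) in follicular ovaries, or 0.277 without follicular ovary 2, and 0.109 (21.6%) in luteal ovaries.

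The same ovaries stood high or low for most of the genes. Follicular ovary 1 was the highest of its phase for 6 of the 7 genes, all but FSTL3, and luteal ovary 1 was the highest for 5, all but FST and FSTL3. Follicular ovary 3 was below the phase mean for 7 of 7 genes, and luteal ovary 3 was the lowest of its phase for 6 of 7, all but FST. On the log2 scale CYP19A1 lay 1.44 above its phase mean in follicular ovary 1 and 2.04 above in luteal ovary 1, while its deviation was -1.88 in follicular ovary 3 and -2.27 in luteal ovary 3. The labels do not say that a number shared by ovaries of different phases links them.

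**Figure D3:**
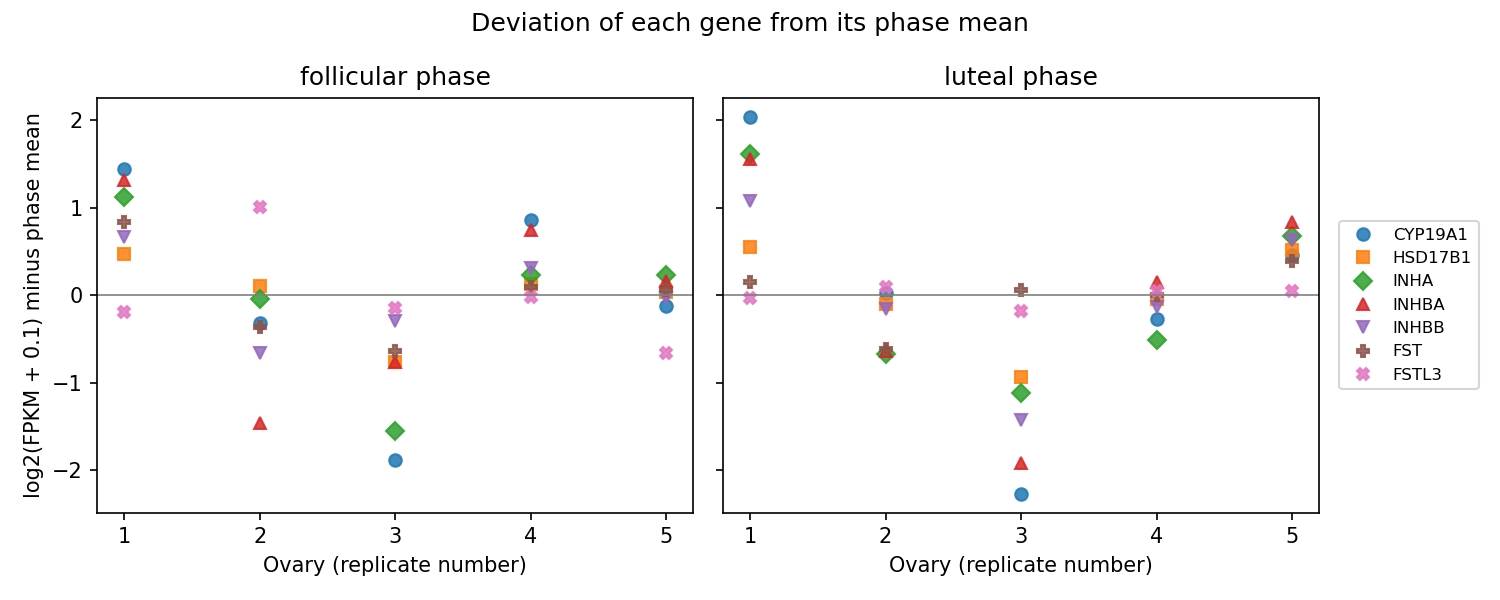
Deviation of log2(FPKM + 0.1) from the mean of the phase for each gene in each ovary, with follicular ovaries on the left and luteal ovaries on the right. Follicular ovary 1 and luteal ovary 1 lie above the phase mean for 6 of 7 genes, and luteal ovary 3 reaches -2.27 for CYP19A1, while FSTL3 stays apart from the other genes in follicular ovary 2.

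To measure how far the genes varied together, the phase means were subtracted and the correlation of each pair was taken over the 10 ovaries, with an exact permutation within phases and Benjamini-Hochberg adjustment over the 21 pairs. By Pearson's r 10 of 21 pairs passed and by Spearman's rho 15 of 21. All 15 pairs without FSTL3 were positive, the lowest r being 0.492. The pairs share genes and ovaries and are not independent of one another. The share of pairs of other genes that pass this test was not computed, so that these counts have no background to be read against.

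The 2 beta subunits were the closest pair: INHBA and INHBB had r = 0.963 (exact permutation p = 6.94e-05, the smallest that 14400 orders can give, adjusted p = 0.00146) and rho = 1, and r was 0.946 without the 2 ovaries farthest from the median of INHBA. The enzymes CYP19A1 and HSD17B1 followed each other with r = 0.935 (exact permutation p = 0.000347, adjusted p = 0.00182), rho = 0.855, and r = 0.896 without the 2 farthest ovaries. INHA followed both enzymes. With CYP19A1 its r was 0.924 (exact permutation p = 0.000208, adjusted p = 0.00182), with rho = 0.891 and r = 0.908 without the 2 farthest ovaries. With HSD17B1 its r was 0.918 (exact permutation p = 0.000347, adjusted p = 0.00182), with rho = 0.964 and r = 0.943 without the 2 farthest ovaries.

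Between the beta subunits and the other genes r was lower. CYP19A1 had r = 0.875 with INHBA (exact permutation, adjusted p = 0.0134), which was 0.735 without luteal ovaries 1 and 3, and r = 0.892 with INHBB (adjusted p = 0.0111). INHA had r = 0.818 with INHBA and 0.813 with INHBB (exact permutation, adjusted p = 0.0173 for each). HSD17B1 had r = 0.809 with INHBA (exact permutation, adjusted p = 0.0217) and 0.847 with INHBB (adjusted p = 0.0167). These last 4 pairs were not called without luteal ovary 1, with r between 0.719 and 0.817, or without luteal ovary 5, with r between 0.794 and 0.827 (exact permutation, adjusted p between 0.0520 and 0.0598 over both), which left 6 of 21 pairs. Without follicular ovary 1, 3 of these 4 pairs, all but HSD17B1 with INHBB, were not called (exact permutation, adjusted p = 0.0620 for each). Without luteal ovary 3 r was 0.676 for HSD17B1 with INHBA and 0.693 with INHBB (exact permutation, adjusted p = 0.0938 and 0.0839), and without luteal ovary 2 14 pairs passed.

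FST had r between 0.492 and 0.714 with the 5 genes other than FSTL3. None of these passed the threshold by Pearson's r (2 at an unadjusted exact permutation p under 0.05), whereas all 5 passed by Spearman's rho. The Pearson calls depended on single ovaries: 4 of the 5 pairs passed without luteal ovary 2, and 4 passed without luteal ovary 3, where r with INHBB was 0.781 and r with INHBA was 0.857 (exact permutation, adjusted p = 0.0401 and 0.035). Its highest r, with INHA, was 0.714 (exact permutation, adjusted p = 0.0536), and the rho of that pair was 0.879 (adjusted p = 0.00729). FSTL3 had no r past the threshold: its r with the other 6 genes lay between -0.33 and 0.14, and 4 of the 6 were negative.

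**Figure D4:**
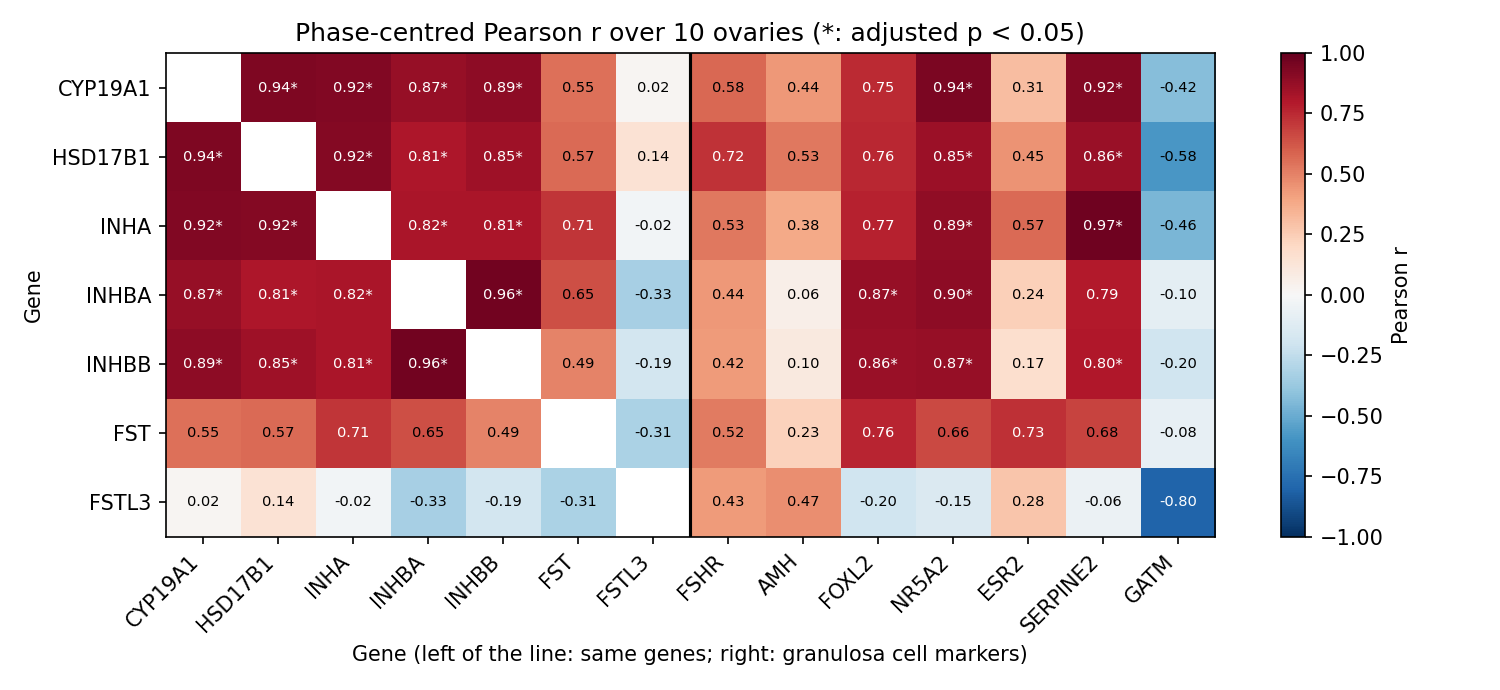
Pearson's r of phase-centred log2(FPKM + 0.1) over 10 ovaries between the 7 genes, and between each of them and the 7 granulosa markers. The highest value among the 7 genes is 0.963 for INHBA and INHBB, the values for FSTL3 lie between -0.33 and 0.14, and GATM is negative with all 7 genes.

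Since most of these genes are known from granulosa cells, the deviations of all 7 were also set against the 7 granulosa markers in the same way. This comparison was added after the values were seen. By Pearson's r 11 of 49 pairs passed the threshold (exact permutation within phases, adjusted over 49 pairs), and by Spearman's rho 17 of 49. How often the 7 genes pass with genes other than these markers was not computed, so that the counts are not particular to granulosa markers. NR5A2, a nuclear receptor of granulosa and luteal cells, passed with 5 of the 7 genes, SERPINE2, a protease inhibitor, with 4, and FOXL2, a transcription factor of granulosa cells, with 2. The r of CYP19A1 with NR5A2 was 0.942 (exact permutation, adjusted p = 0.00340), that of INHA with SERPINE2 was 0.974 (adjusted p = 0.00936) and that of INHBA with FOXL2 was 0.869 (adjusted p = 0.0174). FSHR, AMH, ESR2 and GATM passed with none in 28 pairs (2 at an unadjusted exact permutation p under 0.05). Their r with the 7 genes ran from 0.424 to 0.719 for FSHR, from 0.0616 to 0.529 for AMH, from 0.169 to 0.730 for ESR2 and from -0.80 to -0.083 for GATM. The number of pairs past the threshold was 4 without follicular ovary 1 and 20 without follicular ovary 2.

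The summed level of the granulosa markers was 652, 392, 264, 486 and 430 FPKM in follicular ovaries 1 to 5 and 478, 255, 206, 207 and 340 FPKM in luteal ovaries 1 to 5. The sum was highest in ovary 1 and lowest in ovary 3 of each phase, the ovaries in which CYP19A1 and INHA were highest and lowest. SERPINE2 made up most of the sum, with a mean of 343 ± 130 FPKM (SD, n = 5) in follicular and 215 ± 109 FPKM (SD, n = 5) in luteal ovaries. Without SERPINE2, a choice made after the values were seen, the sum was 118, 95.4, 89.3, 109 and 98.4 FPKM in follicular and 87.9, 82.9, 72.7, 74.9 and 90.8 FPKM in luteal ovaries 1 to 5, so that luteal ovary 5 was then the highest of its phase. The markers did not order the ovaries alike: GATM was highest in ovary 3 of each phase, at 40.8 and 22.8 FPKM, and AMH was lowest in luteal ovary 1, at 6.49 FPKM. Markers of other cell types also set luteal ovary 3 apart. In luteal ovary 3 the summed luteal markers were lowest, at 5806 FPKM against 7578 to 8000 FPKM in the other luteal ovaries, while stromal markers were highest, at 2260 FPKM against 1198 to 1732 FPKM, and oocyte markers were highest, at 11.9 FPKM against 5.92 to 9.14 FPKM. In follicular ovary 3 luteal markers, at 122 FPKM against 131 to 171 FPKM, and theca markers, at 148 FPKM against 164 to 220 FPKM, were the lowest of the phase. Its stromal and oocyte sums were not the highest. They stood at 1655 and 13.9 FPKM, below follicular ovary 5 at 1703 and 25.7 FPKM. The part of granulosa content or of other cell types in the differences between ovaries or phases was not tested.

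The balance of the subunits within an ovary did not separate the phases. Such a ratio does not depend on how that ovary was scaled, apart from 0.1 FPKM added to each sum. The ratio of INHA to the sum of INHBA and INHBB was 0.809 to 3.45 in follicular and 1.16 to 2.84 in luteal ovaries, and the mean log2 ratio was 0.60 ± 0.77 and 0.81 ± 0.47 (SD, n = 5 each; difference 0.21, two-sided exact permutation p = 0.603, adjusted over 5 ratios p = 0.754). INHBA over INHBB had a mean log2 ratio of 1.52 ± 0.62 in the follicular and 1.75 ± 0.45 in the luteal phase (SD, n = 5 each; difference 0.22, exact permutation p = 0.516, adjusted p = 0.754), a difference that was 0.022 without follicular ovary 2 and 0.38 without follicular ovary 1. That INHBB passed the test and INHBA did not is therefore not a difference between them beyond the spread.

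Follistatin relative to the beta subunits did not separate the phases beyond the spread either. FST over the sum of INHBA and INHBB was 0.338 to 0.891, with a median of 0.480, in follicular ovaries and 0.385 to 3.45, with a median of 0.891, in luteal ovaries. Luteal ovary 3, where both beta subunits were lowest, held the value of 3.45. The mean log2 ratio was -1.03 ± 0.53 and -0.08 ± 1.15 (SD, n = 5 each; difference 0.95, exact permutation p = 0.135, adjusted p = 0.615), and the difference was 0.49 without luteal ovary 3. FSTL3 over FST had a difference of 0.57 on the log2 scale (exact permutation p = 0.246, adjusted p = 0.615), which ran from 0.31 without follicular ovary 1 to 0.91 without follicular ovary 2. CYP19A1 over HSD17B1 had a difference of -0.08 (exact permutation p = 0.921, adjusted p = 0.921). The smallest p that the exact permutation of 5 against 5 ovaries can give is 0.00794.

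**Figure D5:**
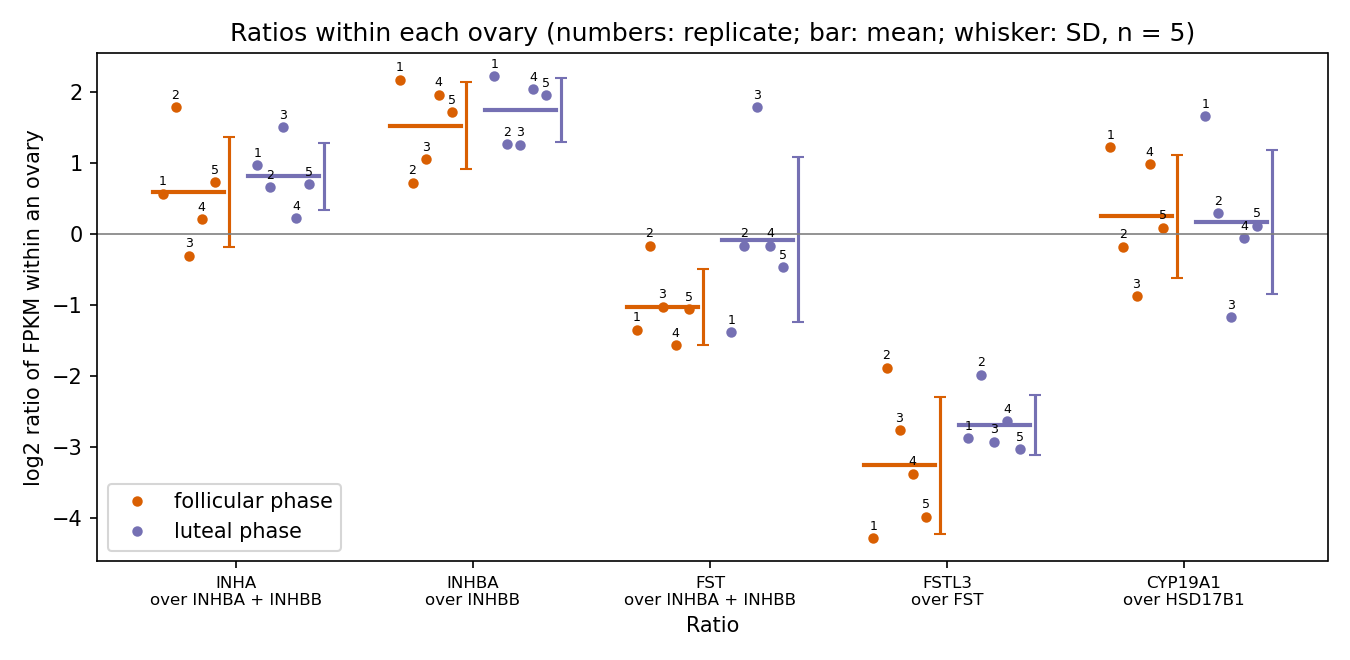
Log2 ratio between the genes in each of the 10 ovaries, by phase, for the 5 ratios. The phases overlap for each ratio, and the difference between phase means for FST over the beta subunits is 0.95, or 0.49 without luteal ovary 3.

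The 11 annotated transcripts were also fitted one by one among 32842 transcripts, of which 17.3% were called. Of the 11, 2 were called, both lower in the luteal phase: the INHBB transcript XM_018061661.1, at -1.41 (limma adjusted p = 0.0476), and the major HSD17B1 transcript XM_018065126.1, at -1.25 (limma adjusted p = 0.0176). The INHBB transcript lost its call in 8 of 10 fits that left out 1 ovary, with limma adjusted p between 0.0508 and 0.105, and passed only without follicular ovary 2 or luteal ovary 1. The HSD17B1 transcript passed in all 10, with limma adjusted p between 0.0105 and 0.0433. The minor HSD17B1 transcript XM_018065125.1 differed by -0.75 (limma adjusted p = 0.268). Both INHBA transcripts had nearly equal differences, -1.19 for XM_013963334.2 and -1.18 for NM_001285581.1, and CYP19A1 had -1.34 for NM_001285747.1 and -0.99 for XM_013967046.2, none of them called. INHA (NM_001285606.1) and FSTL3 (XM_018050505.1) each had 1 transcript, and the FST transcripts XM_005694718.3 and NM_001285764.1 differed by -0.38 and -0.11. The second of these changed sign without follicular ovary 1, at 0.13, and without luteal ovary 2, at 0.069, and the first ran from -0.54 to -0.18 over the fits that left out 1 ovary.

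A list of 7 genes held receptors, co-receptors and proteins described as binding these hormones. In it 4 of 7 genes were lower in the luteal phase, none was higher and 3 did not pass, beside 27.8% of all genes tested that were lower. Their median log2 difference was -0.47 beside -0.14 over all genes. ACVR2A, a type II activin receptor, fell by 0.44 on the log2 scale (limma adjusted p = 0.00296), and the type I receptor ACVR1C fell by 0.87 (adjusted p = 0.0110), from a level of 1.08 ± 0.443 FPKM to 0.528 ± 0.108 FPKM (SD, n = 5 each). TGFBR3, the betaglycan that binds inhibin, fell by 0.31 (limma adjusted p = 0.0230), from 81.0 ± 7.18 FPKM to 65.5 ± 9.31 FPKM (SD, n = 5 each). IGSF1, a membrane protein once described as an inhibin-binding protein, fell by 0.84 (limma adjusted p = 0.0161). Its means were 0.243 ± 0.063 FPKM and 0.0940 ± 0.050 FPKM (SD, n = 5 each), so that this call lies near the filter level of 0.1 FPKM. The differences of ACVR1B, ACVR2B and TGFBR3L were -0.19, -0.47 and -0.49 (limma adjusted p = 0.213, 0.0773 and 0.135).

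Of the activin signal transducers, SMAD2, a receptor-activated SMAD, fell by 0.56 (limma adjusted p = 0.000416), from 76.5 ± 7.98 FPKM to 51.9 ± 3.72 FPKM (SD, n = 5 each). The inhibitory SMAD7 rose by 1.03 (limma adjusted p = 0.000138), from 1.63 ± 0.138 FPKM to 3.44 ± 0.495 FPKM (SD, n = 5 each). In all, 1 of 4 SMAD genes was higher, 2 were lower and 1 did not pass, where 43.7% of all genes were called. The other activin subunits, INHBC and INHBE, were below the filter on low values. INHBE stood at 2.76 FPKM in follicular ovary 2, the ovary in which FSTL3 was highest, and at 0.187 FPKM or less in the other 9 ovaries.

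Of 16 genes of oestradiol synthesis and action, 12 were in the table and 11 were tested, and 7 were higher in the luteal phase, 3 lower and 1 not called, beside 43.7% of all genes called in either direction. The lowest and highest differences belonged to the steps that supply steroid to aromatase: CYP17A1, which makes androgens in theca cells, fell by 1.71 (limma adjusted p = 0.00390), from 23.4 ± 10.2 FPKM to 7.48 ± 3.88 FPKM (SD, n = 5 each), and STAR, which delivers cholesterol to the mitochondrion, rose by 7.35 (limma adjusted p = 1.002e-09). HSD3B1, HSD3B2, POR and SULT1E1 were not analysed here. Among 9 regulators of aromatase and inhibin, 6 were lower, 2 higher and 1 not called, beside 27.8% of all genes called lower. FSHR, the receptor for follicle-stimulating hormone, fell by 0.94 (limma adjusted p = 0.00210), from 14.7 ± 3.50 FPKM to 7.56 ± 1.59 FPKM (SD, n = 5 each), and LHCGR, the receptor for luteinising hormone, rose by 2.87 (limma adjusted p = 5.95e-07).

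The genes whose pattern was most like CYP19A1 over the 10 ovaries, among 11429 candidates with a named symbol, were NEIL3 (r = 0.971), GPT (r = 0.967) and PMM1 (r = 0.965). For INHA they were SERPINE2 (r = 0.979), TRIB2 (r = 0.951) and PMM1 (r = 0.937), and for FST they were RNASEK (r = 0.914), TRIB2 (r = 0.897) and EHHADH (r = 0.896). With the phase means subtracted, r was between 0.882 and 0.980 for these 9 pairs. They were picked as the highest of many candidates, and r is given as a description.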

How the data were processed

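Ribosomal RNA was removed from total RNA of each ovary, and the authors used HISAT2 for alignment of paired reads, StringTie for assembly and Cuffdiff for the deposited FPKM of each transcript and ovary; the genome build is not given in the sources used here. FPKM of protein-coding rows was summed per symbol, and the second table repeats those rows. The deposited FPKM holds no read counts, so the depth of each ovary is unknown and no counting interval could be given. Genes with at least 0.1 FPKM in at least 5 of 10 ovaries were compared on log2(FPKM + 0.1) with limma 3.58.1 in R 4.3.3 (lmFit, eBayes with trend; luteal minus follicular, two-sided), with Benjamini-Hochberg adjustment over all genes or transcripts and a threshold of 0.05; fold changes of low genes are understated on this scale. Ratios and pairs were tested by exact permutation in Python 3.11.15. The limma fit was tried on the deposited values with phase means removed and known changes added to some genes. The permutation tests were tried on random numbers. Phase comes from the sample labels.

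The members and gene lists were chosen with earlier results of these data known. All 7 members and all activin receptors are named, and of the SMAD, oestradiol and regulator lists the genes with the lowest and highest called difference; marker lists are given by counts and sums, and other genes were named after their values were seen. For CYP19A1, INHA and FST the 3 genes with the highest r among genes with a mean of at least 1 FPKM and a symbol other than a LOC number, members left out, are named. CYP11A1 and CYP17A1 are listed in the table under locus names and were matched by RefSeq synonyms (assembly ARS1.2). The granulosa marker pairs and the transcript shares were added after the values were seen. Alternatives were other pseudocounts (0.01 and 1), other filters (none, or 0.5 FPKM), a common median, quantile normalization, TPM, no trend, the replicate number as a block, and leaving out each ovary.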

Additional observations from a re-analysis of the deposited data

Results flagged for a closer look

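In 32 groups of 5 ovaries each, the highest or lowest ovary was compared with the others by Dixon's ratio of its gap to the whole range. The groups were the FPKM of the genes without a log, the log2 ratios and the percent transcript shares, by phase. Of these groups, 2 exceeded the critical value of 0.71, where chance alone gives about 1 in 20. The flags depend on these scales. FSTL3 stood at 16.2 FPKM in follicular ovary 2 against 5.03 to 7.85 FPKM in the other 4 follicular ovaries (ratio 0.747). On the log2 scale its deviation from the phase mean was 1.01 against -0.66 to -0.022, where the gap is a smaller part of the range. The share of the minor FST transcript was 30.0% in luteal ovary 2 against 32.2 to 32.7% in the other 4 luteal ovaries (ratio 0.787).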

How the results depend on the processing

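HSD17B1 and INHBB were called in every fit over genes, and all 7 genes kept the direction of their difference under every scaling, filter, pseudocount and left-out ovary. Rescaling moved the median log2 difference of all genes from -0.14 to between -0.09 and -0.05, and 2687 of 6433 calls were higher in the luteal phase by quantiles and 2884 of 5494 by TPM. With the replicate number as a block 5 of the 7 genes were called, adding CYP19A1 at -1.32 (limma adjusted p = 0.00603), INHA at -1.04 (0.00794) and INHBA at -1.19 (0.0141), with 4 transcripts called. The labels do not say that a number pairs ovaries. The deviations of same-numbered ovaries correlated at 0.0258 to 0.199, all positive, and differently numbered ovaries were not compared. Whether the numbers pair ovaries was therefore not tested. The 5 pairs allow no p below 0.0625 for the ratios.

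Leaving out 1 ovary gave 2 to 3 genes called, 1 to 3 transcripts (1 in 8 of 10 fits), 6 to 14 pairs and 4 to 20 marker pairs. The log2 difference ran from 0.11 to 0.52 for FSTL3 and from -1.44 to -0.76 for INHA, -1.83 to -0.75 for CYP19A1, -1.58 to -0.71 for INHBA and -0.46 to -0.09 for FST. The log2 ratio of CYP19A1 over HSD17B1 ran from -0.45 to 0.26 and that of INHA over the beta subunits from -0.011 to 0.51. With FSTL3, r ran from -0.13 to 0.052 for INHA, -0.55 to 0.24 for INHBA, -0.45 to 0.30 for INHBB and -0.10 to 0.23 for CYP19A1. The difference in transcript share ran from 3.68 to 4.59 percentage points for FST, 0.355 to 2.59 for HSD17B1, 0.917 to 1.92 for CYP19A1 and -0.490 to 0.0299 for INHBA. The cause of these shifts was not tested, and without read counts the precision set by each ovary's depth is unknown.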

Other observations

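Of the 4 genes with a pair of annotated transcripts, FST had the largest difference between the phases in percentage points of its FPKM, though not relative to the starting share. The transcript NM_001285764.1 held 28.0 ± 1.39% (SD, n = 5; 26.6 to 30.2%) of FST in follicular ovaries and 32.0 ± 1.10% (SD, n = 5; 30.0 to 32.7%) in luteal ovaries, a difference of 4.03 percentage points (two-sided exact permutation p = 0.0159, adjusted over 4 genes p = 0.0635), and the phases overlapped. Of 10 fits that left out 1 ovary, 3 passed the threshold. Without follicular ovary 1 the difference was 4.59 percentage points (exact permutation, adjusted p = 0.0317). Without follicular ovary 4 it was 4.02 and without luteal ovary 1 it was 3.98 (exact permutation, adjusted p = 0.0476 for each). The other 7 fits did not pass, with adjusted p up to 0.0952 (exact permutation). The minor transcript of CYP19A1, XM_013967046.2, held 6.11 ± 0.730% and 7.53 ± 1.53% (SD, n = 5 each; exact permutation p = 0.103, adjusted p = 0.206). Without luteal ovary 1 the difference of 1.92 percentage points had an adjusted p of 0.0476 (exact permutation). The other 9 of 10 fits that left out 1 ovary did not pass, with adjusted p up to 0.413 (exact permutation). The minor transcript of HSD17B1, XM_018065125.1, held 5.43 ± 3.46% and 6.53 ± 0.994% (SD, n = 5 each; exact permutation p = 0.563, adjusted p = 0.627). Without follicular ovary 4 the difference was 2.59 percentage points (exact permutation, adjusted p = 0.0476). The other 9 of 10 fits did not pass, with adjusted p up to 0.889 (exact permutation). The share of the INHBA transcript XM_013963334.2 was 16.4 ± 0.378% and 16.2 ± 0.966% (SD, n = 5 each; exact permutation p = 0.627, adjusted p = 0.627). FPKM estimates of transcripts that overlap share reads, and how the reads were divided between them was not tested.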
